A study of Mus musculus with 9 samples.

Results

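The TREM receptors (triggering receptors expressed on myeloid cells) and their signalling adaptor Tyrobp, also called DAP12, were examined in splenic myeloid-derived suppressor cells (MDSCs) of tumour-bearing mice. The 7 genes were the rows of the expression files whose symbol was Trem1, Trem2, Trem3, Treml1, Treml2, Treml4 or Tyrobp, out of 23284 gene symbols, and all 7 were found in every file. RNA was measured in 9 libraries, with 3 from PMN-MDSCs of WT mice, 3 from Mo-MDSCs of WT mice and 3 from Mo-MDSCs of p16/p21-DKO mice, which lack the cell cycle inhibitors p16 (Cdkn2a) and p21 (Cdkn1a). The labels give C57BL/6J as the strain of the WT mice, C57BL/6 as that of the DKO mice, spleen as the tissue and 3 weeks as the age, which conflicts with the methods, where the mice were adults at inoculation. By the study's methods the spleens were taken 3 weeks after inoculation of SCT cells, a spindle cell tumour line made from a p16-deficient mouse by chemical carcinogenesis, so every mouse carried a tumour without p16. PMN-MDSCs, the neutrophil-like subset, were taken magnetically as Ly6G+ cells, and Mo-MDSCs, the monocyte-like subset, as the Gr-1+ cells left without Ly6G. DKO PMN-MDSCs were not analysed here. Values are FPKM, fragments scaled to transcript length and to the mapped reads, so levels can be compared between genes of different length.

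TREM receptors are membrane proteins of the immunoglobulin superfamily. Most of them have a short cytoplasmic tail and signal through Tyrobp, whose activating motif (ITAM), once phosphorylated by Src family kinases, recruits the kinase Syk. TREM1 is known as an amplifier of inflammatory cytokine release in neutrophils and monocytes, and TREM2 as a receptor for lipids and apolipoproteins on macrophages, microglia and tumour-associated myeloid cells. Treml1 is known from platelets and, unlike the others, carries an inhibitory motif.

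The library checks were as follows. Relative depth, read from the steps that single reads make in the values of low genes, ran from 0.809 to 1.31 times that of WT Mo-MDSC replicate 1, and 11299 to 11418 genes per library reached 1 FPKM. The 7 neutrophil markers analysed summed to 95517 to 213759 FPKM in PMN-MDSCs, 13651 to 48114 FPKM in WT Mo-MDSCs and 5196 to 13103 FPKM in DKO-labelled Mo-MDSCs, and all 7 were at 1 FPKM or more in all 9 libraries. S100a8 and S100a9 made up most of each sum. The 8 monocyte markers summed to 1037 to 1089 FPKM in PMN-MDSCs, 1836 to 2057 FPKM in WT Mo-MDSCs and 1482 to 1672 FPKM in the DKO-labelled libraries, with 7 or 8 of them at 1 FPKM or more. Csf1r made up most of the PMN-MDSC sum and did not differ, with means of 753 FPKM there and 797 FPKM in WT Mo-MDSCs (adjusted p = 0.578, limma). Cd14 was lower in WT Mo-MDSCs, at 44.3 FPKM against 98.5 FPKM (adjusted p = 2.33e-04, limma). The other 6 were higher there by limma, beside 18.5% of all genes. The targeted genes did not separate the genotypes. Cdkn1a was at 8.18, 6.46 and 8.04 FPKM in WT Mo-MDSC replicates 1 to 3 and at 5.55, 8.52 and 6.00 FPKM in the libraries labelled DKO, and limma gave a log2 fold change of -0.19 (SE 0.18) with an adjusted p of 0.637. Cdkn2a was below 1 FPKM in all 6 (0.72, 0.77 and 0.43 FPKM in WT, 0.26, 0.59 and 0 FPKM in DKO-labelled) and was not tested, and its symbol also covers the Arf transcript. Which part of either gene was deleted is not given in the sources used here, so these values cannot check the genotype, and the libraries are called DKO-labelled throughout. In bulk RNA, fewer cells of a type and less RNA per cell cannot be told apart.

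The 6 receptor genes lie side by side on mouse chromosome 17. In GENCODE M21 annotation of GRCm38 (the mm10 build) all 6 are protein-coding and on the plus strand, in the order Trem1 (chr17:48232768-48246924), Trem3 (chr17:48247777-48258841), Treml4 (chr17:48264295-48275360), Treml2 (chr17:48299498-48312533), Trem2 (chr17:48346401-48354147) and Treml1 (chr17:48359916-48367176). The cluster spans 134 kb and lies 19.1 Mb from Cdkn1a, which is on the same chromosome. Tyrobp is on chromosome 7 (chr7:30413760-30417585, plus strand). The 250 bases before the RefSeq start of 4 members are shown because these neighbouring genes had such different levels in the same libraries. They are from GRCm38.p6, plus strand, 5′ to 3′, and capitals mark GAGGAA or its reverse complement TTCCTC, the core recognised by the myeloid factor PU.1.
Trem1 (chr17:48232489-48232738): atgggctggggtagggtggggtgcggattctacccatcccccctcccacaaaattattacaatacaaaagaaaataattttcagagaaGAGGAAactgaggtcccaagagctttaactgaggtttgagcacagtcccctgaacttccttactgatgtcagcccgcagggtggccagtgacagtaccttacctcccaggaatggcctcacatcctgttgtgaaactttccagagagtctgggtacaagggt
Trem2 (chr17:48346151-48346400): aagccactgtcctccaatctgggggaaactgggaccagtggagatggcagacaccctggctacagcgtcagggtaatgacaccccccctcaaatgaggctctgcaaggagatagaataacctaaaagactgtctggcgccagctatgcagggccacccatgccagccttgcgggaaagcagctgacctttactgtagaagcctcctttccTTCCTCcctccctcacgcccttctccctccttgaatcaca
Treml4 (chr17:48264045-48264294): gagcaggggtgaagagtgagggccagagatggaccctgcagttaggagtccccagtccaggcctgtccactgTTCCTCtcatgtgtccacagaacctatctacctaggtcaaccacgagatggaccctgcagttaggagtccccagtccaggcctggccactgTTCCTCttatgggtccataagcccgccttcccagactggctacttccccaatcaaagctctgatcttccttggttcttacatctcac
Treml1 (chr17:48359666-48359915): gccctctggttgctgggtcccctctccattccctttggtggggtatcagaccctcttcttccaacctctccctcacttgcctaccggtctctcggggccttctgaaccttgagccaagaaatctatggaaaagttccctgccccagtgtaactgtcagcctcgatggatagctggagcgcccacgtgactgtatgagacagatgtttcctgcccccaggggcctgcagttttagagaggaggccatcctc
The PU.1 core occurred 1 time in the Trem1 window (bases -162 to -157 from the start), 1 time in that of Trem2 (-40 to -35) and 2 times in that of Treml4 (-178 to -173 and -87 to -82), and not in that of Treml1. Of 32851 promoter windows of the same length, 23.3% held it on either strand, so that these matches are a description and not sites of binding. The letters AGATAA, bound by GATA factors, occurred in 9.99% of all windows, and the C/EBP palindrome TTGCGCAA in 0.164%, and neither was in the 4 windows shown.

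Tyrobp, the adaptor, was the most abundant member in all 9 libraries and ranked 10 among all genes by mean FPKM in PMN-MDSCs, 29 in WT Mo-MDSCs and 38 in DKO-labelled Mo-MDSCs. Among receptors Treml4 had the highest mean in each group. In PMN-MDSCs the order of mean levels was Tyrobp, Treml4, Trem3, Trem1, Treml2, Trem2 and Treml1, and the neighbours Treml4 and Trem3, Trem1 and Treml2, and Trem2 and Treml1 overlapped in range. In WT Mo-MDSCs the order was Tyrobp, Treml4, Trem3, Trem2, Treml2, Trem1 and Treml1, with an overlap of Trem2 and Treml2 alone. In DKO-labelled Mo-MDSCs Treml2 and Trem2 changed places, again overlapping, and the rest of the order was as in WT.

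**Figure D1:**
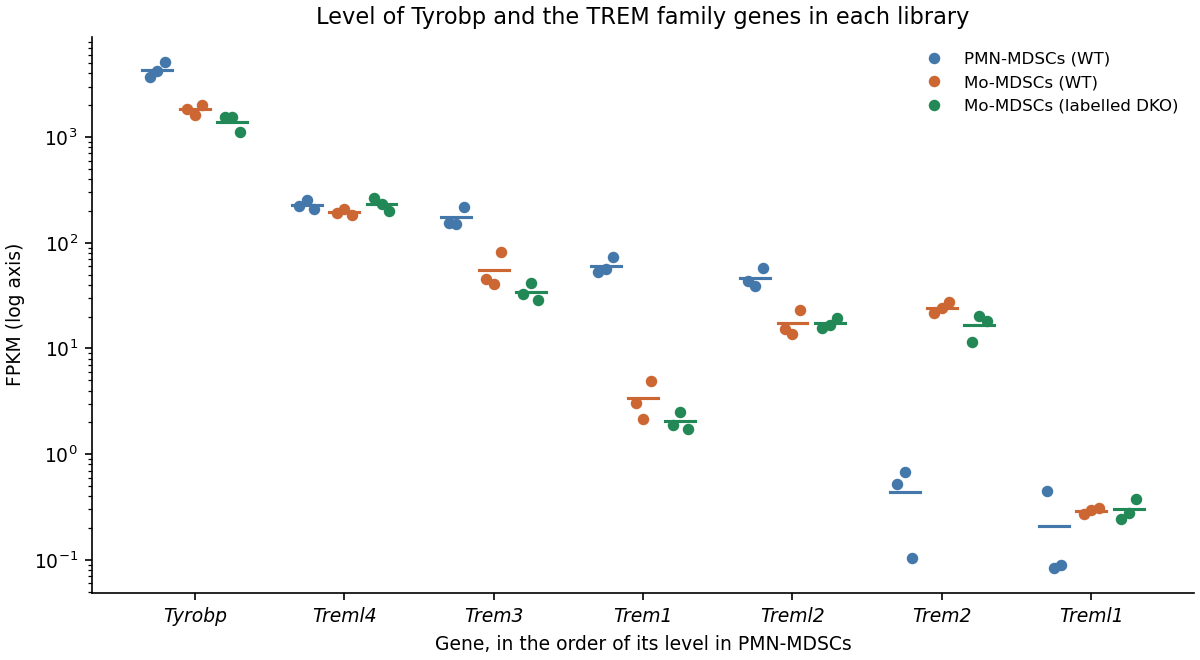
FPKM of the 7 genes (log axis) in each library, with 3 points per group for replicates 1 to 3 from left to right and a bar at the group mean. Tyrobp was highest in every library, Trem1 was at 53.1 FPKM or more in PMN-MDSCs and at most 4.97 FPKM in Mo-MDSCs, and Trem2 was below 1 FPKM in PMN-MDSCs and at 11.4 FPKM or more in Mo-MDSCs.

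The comparison of WT Mo-MDSCs with WT PMN-MDSCs asked how the subsets differ. Of the 6 members tested by limma, 4 were lower in Mo-MDSCs (Trem1, Trem3, Treml2 and Tyrobp), 1 was higher (Trem2) and Treml4 did not pass an adjusted p of 0.05. Among all 11491 genes tested, 39.1% passed in either direction, 20.6% as lower and 18.5% as higher. The same 5 members did not overlap between the groups, as was true of 52.5% of all genes tested. Treml1 never reached 1 FPKM and was not tested, and Trem2 entered the test only through its level in Mo-MDSCs. All fold changes are on the scale of log2(FPKM + 0.1), which understates those of low genes.

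Trem1, the amplifier of inflammatory signalling, was at 53.1, 56.2 and 73.0 FPKM in PMN-MDSC replicates 1 to 3. In WT Mo-MDSCs it was at 3.04, 2.14 and 4.97 FPKM. All 3 Mo-MDSC libraries were lower than all PMN-MDSC libraries, and the Mo-MDSC mean was 5.57% of the PMN-MDSC mean. The log2 fold change was -4.19 (SE 0.29, 95% interval -4.87 to -3.52, adjusted p = 6.41e-05, limma), and the exact permutation test gave 0.1, the smallest p that 3 libraries against 3 allow.

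Trem2, the lipid-sensing receptor, went the other way. It was at 0.518, 0.681 and 0.104 FPKM in PMN-MDSCs and at 21.5, 24.0 and 27.3 FPKM in WT Mo-MDSCs. The groups were far apart, with a log2 fold change of 5.72 (SE 0.47, 95% interval 4.61 to 6.82, adjusted p = 1.38e-04, limma). The size rested on the low PMN-MDSC values, and was 5.13 without PMN-MDSC replicate 3 and 4.15 with a pseudocount of 1. The steps of single reads put the PMN-MDSC values at 4, 7 and 1 reads and the Mo-MDSC values at about 205, 284 and 309 reads. Scaled for depth, the ratio of summed reads was 56.2, with a 95% interval of 32.0 to 109 that covers counting error only. Trem1 FPKM exceeded Trem2 by 82.6 to 703 times in the PMN-MDSC libraries, where Trem2 rested on 12 reads, and Trem2 exceeded Trem1 by 5.50 to 11.2 times in the WT Mo-MDSC libraries.

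Trem3, a mouse receptor that also pairs with Tyrobp, was at 153.1, 151.4 and 219.9 FPKM in PMN-MDSCs. The WT Mo-MDSC libraries had 45.5, 40.5 and 81.5 FPKM, all below the PMN-MDSC range. The log2 fold change was -1.69 (SE 0.28, adjusted p = 0.00303, limma). Replicate 3 was the highest library of its group in both subsets, for Trem3 as for Trem1. Trem3 exceeded Trem1 by 2.69 to 3.01 times in PMN-MDSCs and by 15.0 to 18.9 times in WT Mo-MDSCs, with no overlap of these ratios.

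Treml2, a receptor found on lymphocytes as well as on myeloid cells, was at 43.5, 38.8 and 57.4 FPKM in PMN-MDSCs and at 15.4, 13.6 and 23.1 FPKM in WT Mo-MDSCs. No library overlapped, and the log2 fold change was -1.44 (SE 0.22, adjusted p = 0.00244, limma). B-cell markers, with 6 of 6 at 1 FPKM or more in every library, summed to 1451 to 1654 FPKM in PMN-MDSCs and 1034 to 1163 FPKM in WT Mo-MDSCs, and their part in the Treml2 difference was not tested.

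Treml4, known from splenic macrophages and dendritic cells, was at 223.7, 252.3 and 209.4 FPKM in PMN-MDSCs and at 189.6, 210.0 and 183.9 FPKM in WT Mo-MDSCs. The groups overlapped by 1 library on each side, and the log2 fold change was -0.23 (SE 0.098, 95% interval -0.46 to 0.00075, adjusted p = 0.104, limma). In a fit blocked by replicate number the adjusted p was 0.00633, and under quantile normalization the fold change was 0.21, in the other direction. Red-pulp macrophage markers, with 9 of 9 at 1 FPKM or more in every library, summed to 8503 to 9425 FPKM in PMN-MDSCs and 5314 to 6365 FPKM in WT Mo-MDSCs, and the 8 dendritic cell markers, with 4 to 7 of them at 1 FPKM or more, summed to 132 to 157 FPKM and 162 to 173 FPKM. Irf8 made up most of each dendritic cell sum, with means of 101 FPKM in PMN-MDSCs and 138 FPKM in WT Mo-MDSCs. By limma Irf8, Flt3 and Clec9a were higher in WT Mo-MDSCs. Itgax was lower, at a mean of 17.9 FPKM against 35.8 FPKM in PMN-MDSCs, and the rest did not pass or were not tested. The part of either cell type in the Treml4 level was not tested.

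Treml1, the platelet member, was at 0.451, 0.0846 and 0.0902 FPKM in PMN-MDSCs and at 0.273, 0.294 and 0.307 FPKM in WT Mo-MDSCs. These values correspond to 4, 1 and 1 reads and to 3, 4 and 4 reads, and the depth-scaled ratio of 1.55 had a counting interval of 0.525 to 5.10. A difference was not detectable at this depth. The 10 platelet and megakaryocyte markers summed to 14.3 to 20.6 FPKM in PMN-MDSCs and to 8.97 to 9.40 FPKM in WT Mo-MDSCs, with 4 to 6 and 2 to 3 of them at 1 FPKM or more. The highest means among them were those of Itgb3 (6.41 FPKM in PMN-MDSCs and 3.64 FPKM in WT Mo-MDSCs) and Pf4 (2.68 and 1.75 FPKM). The collagen receptor Gp6, among the lowest, was at 0 FPKM in all WT Mo-MDSC libraries and at most 0.387 FPKM in PMN-MDSCs.

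Tyrobp was at 3696, 4218 and 5128 FPKM in PMN-MDSCs and at 1852, 1631 and 2019 FPKM in WT Mo-MDSCs. Every Mo-MDSC library was below every PMN-MDSC library, with a log2 fold change of -1.24 (SE 0.16, adjusted p = 0.00104, limma). The 6 receptor genes together summed to 511 ± 43.9 FPKM (SD, n = 3) in the PMN-MDSC libraries, against 296 ± 23.3 FPKM (SD, n = 3) for WT Mo-MDSCs. Adaptor transcripts thus exceeded receptor transcripts by 8.46 ± 0.68 times in PMN-MDSCs and by 6.21 ± 0.56 times in WT Mo-MDSCs.

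The make-up of the receptor transcripts is given as shares of their sum. Treml4 was on average 45.0% of the receptor sum in PMN-MDSCs and 66.1% in WT Mo-MDSCs, while Trem3 was 34.0% and 18.6%. Trem1 was 11.8% of the sum in PMN-MDSCs and 1.13% in WT Mo-MDSCs. The share of Trem2 was 0.0880% in PMN-MDSCs and 8.19% in WT Mo-MDSCs, with no overlap between the libraries of the subsets. Treml2 was 9.06% and 5.83%, and Treml1 was below 0.1% on average in both.

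**Figure D2:**
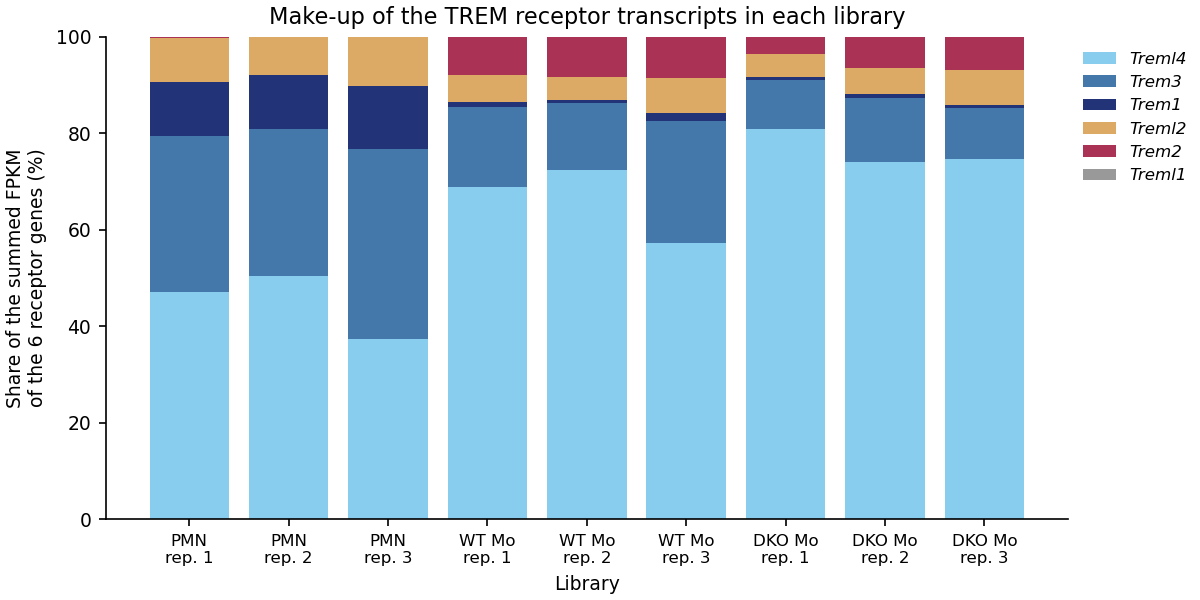
Share of each receptor gene in the summed FPKM of the 6 receptor genes (percent, stacked to 100) in each of the 9 libraries. Trem1 and Trem3 were on average 11.8% and 34.0% of the PMN-MDSC sum, and Trem2, on average 0.0880% there, was 8.19% in WT and 5.56% in DKO-labelled Mo-MDSCs.

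The second comparison asked whether Mo-MDSCs of p16/p21-DKO mice differ from those of WT mice. It shares the 3 WT Mo-MDSC libraries with the first, so the results are not independent of each other. None of the 6 members tested passed an adjusted p of 0.05 in limma, where 0.253% of 11451 genes did. At an unadjusted p below 0.05 there were 3 members (Trem2, Trem3 and Tyrobp), all lower in the DKO-labelled libraries, against 15.0% of all genes. The fold change below 0.75 with an unadjusted p below 0.05 that the study used was met by 2 members (Trem2 and Trem3), against 4.43% of all genes. The limma counts turned on single libraries. Without WT Mo-MDSC replicate 3 no member had an unadjusted p below 0.05 and none met the fold threshold. In replicates 2 and 3 alone, the later library series by the label numbers, only Trem2 did either.

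Trem2 was at 21.5, 24.0 and 27.3 FPKM in WT Mo-MDSCs and at 11.4, 20.2 and 18.2 FPKM in the DKO-labelled libraries. All 3 DKO-labelled libraries were lower than all WT libraries, as was true of 12.9% of all genes tested, and replicate 1 was the lowest. The log2 fold change was -0.58 (SE 0.21, 95% interval -1.06 to -0.10, unadjusted p = 0.0244, adjusted p = 0.270, limma), and the exact permutation p was 0.1. Without DKO-labelled replicate 1 the log2 fold change was -0.33. In reads the DKO-labelled values were about 121, 252 and 210. The depth-scaled ratio to WT was 0.689 with a counting interval of 0.618 to 0.768, which leaves out the spread between libraries. The monocyte markers summed lower in the same libraries, as given above, but as single genes they were mixed. Ccr2, Ly6c2, Cx3cr1 and Klf4 were lower in every DKO-labelled library than in every WT library. Cd14 was higher in every one, and Csf1r, Fcgr1 and F13a1 overlapped. The part of these markers in the Trem2 difference was not tested.

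Tyrobp was at 1539, 1541 and 1123 FPKM in the DKO-labelled libraries and at 1852, 1631 and 2019 FPKM in WT. Again no library overlapped, with replicate 3 the lowest. The log2 fold change was -0.40 (SE 0.16, 95% interval -0.77 to -0.02, unadjusted p = 0.0400, adjusted p = 0.310, limma), a fold of 0.759. Without DKO-labelled replicate 3 the log2 fold change was -0.25. Over 15 alternative settings it kept its sign and ran from -0.48 to -0.16. The smallest difference, -0.16, was that under quantile normalization (unadjusted p = 0.305, adjusted p = 0.648, limma), so its size depended on the scaling of the libraries. The receptor sum was 303 ± 29.6 FPKM (SD, n = 3) in the DKO-labelled libraries, beside 296 ± 23.3 FPKM (SD, n = 3) for WT. Adaptor transcripts exceeded them by 4.60 ± 0.39 times in the former and 6.21 ± 0.56 times in the latter.

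Trem3 was at 33.0, 41.6 and 28.7 FPKM in the DKO-labelled libraries against 45.5, 40.5 and 81.5 FPKM in WT. The groups overlapped, since WT replicate 2 lay below DKO-labelled replicate 2, and WT replicate 3 stood apart from the rest. The log2 fold change was -0.64 (SE 0.26, unadjusted p = 0.0407, adjusted p = 0.312, limma), and without WT replicate 3 it was -0.33. Trem1 was at 1.88, 2.50 and 1.73 FPKM in the DKO-labelled libraries against 3.04, 2.14 and 4.97 FPKM in WT, also overlapping. Its log2 fold change was -0.64 (SE 0.30, 95% interval -1.34 to 0.06, adjusted p = 0.366, limma), and -0.33 without WT replicate 3.

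Treml4 was at 264.3, 231.1 and 201.1 FPKM in the DKO-labelled libraries against 189.6, 210.0 and 183.9 FPKM in WT, with a log2 fold change of 0.25 (SE 0.12, adjusted p = 0.366, limma). The groups overlapped. The red-pulp macrophage markers summed to 6700 to 9682 FPKM in the DKO-labelled libraries, above the WT range. Of the 9, only the haem oxygenase Hmox1 was called higher (log2 fold change 1.06, adjusted p = 0.0299, limma). Its mean was 2636 FPKM in DKO-labelled and 1257 FPKM in WT libraries, a large part of the difference in the sums. Spic and Slc40a1 were also higher in every DKO-labelled library, while Vcam1, C1qa, C1qb, C1qc, Cd5l and Adgre1 overlapped between the groups. Their part in the Treml4 values was not tested. Treml2 was at 15.6, 16.8 and 19.5 FPKM in the DKO-labelled libraries, within the WT range, with a log2 fold change of 0.02 and a 95% interval of -0.43 to 0.48 (adjusted p = 0.963, limma). Treml1 was at 0.246, 0.278 and 0.376 FPKM there, or 3, 4 and 5 reads, and its ratio to WT was 1.03 with a counting interval of 0.416 to 2.57.

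**Figure D3:**
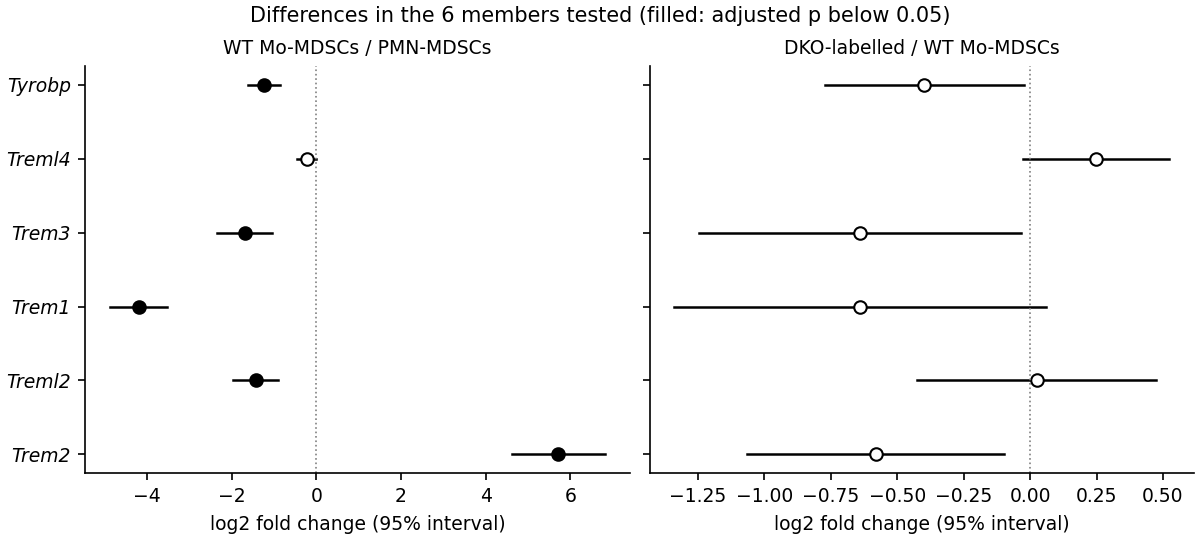
Log2 fold change (point) with its 95% interval (line) of the 6 members tested, for WT Mo-MDSCs over PMN-MDSCs (left) and DKO-labelled over WT Mo-MDSCs (right), with different scales. Filled points passed an adjusted p of 0.05. On the left Trem2 was at 5.72 and Trem1 at -4.19, and on the right no point was filled and the values ran from -0.64 to 0.25.

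The Mo-MDSC levels of the members were set beside those of neutrophil markers. As a percentage of the PMN-MDSC mean, Trem1 was at 5.01, 3.52 and 8.18 in WT and at 3.10, 4.11 and 2.85 in DKO-labelled replicates 1 to 3. Cxcr2, the chemokine receptor of neutrophils, was at 1.40, 0.963 and 2.61 and at 0.783, 1.36 and 0.754. Csf3r, the G-CSF receptor, was at 5.05, 4.75 and 6.14 and at 3.80, 4.76 and 3.66. The order of the 6 Mo-MDSC libraries by Trem1 was that by Cxcr2 and by Csf3r, and so was the order by Trem3, while the other 5 of the 7 markers gave another order. For Tyrobp the order matched that by the alarmin subunits S100a8 and S100a9 and not that by the other 5. Of the 7 neutrophil markers 5 had an unadjusted p below 0.05 between DKO-labelled and WT Mo-MDSCs, against 15.0% of all genes. None was called, against 0.253% of all genes. Mmp8, a neutrophil collagenase and 1 of these 5, was higher where the other 6 of the 7 were lower (log2 fold change 0.79, adjusted p = 0.156, limma). The part of neutrophil RNA in the values of the members was not tested. In the WT Mo-MDSC libraries, Trem3 stayed at 26.0, 23.1 and 46.6 percent of its PMN-MDSC mean and Treml2 at 33.1, 29.2 and 49.7 percent, above the percentages of all 7 markers in the same libraries. In the DKO-labelled libraries Trem3 was at 18.9, 23.8 and 16.4 percent, below Mmp8 at 20.8, 30.8 and 19.6 percent, and Treml2 was at 33.4, 36.0 and 41.9 percent, above all 7.

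**Figure D4:**
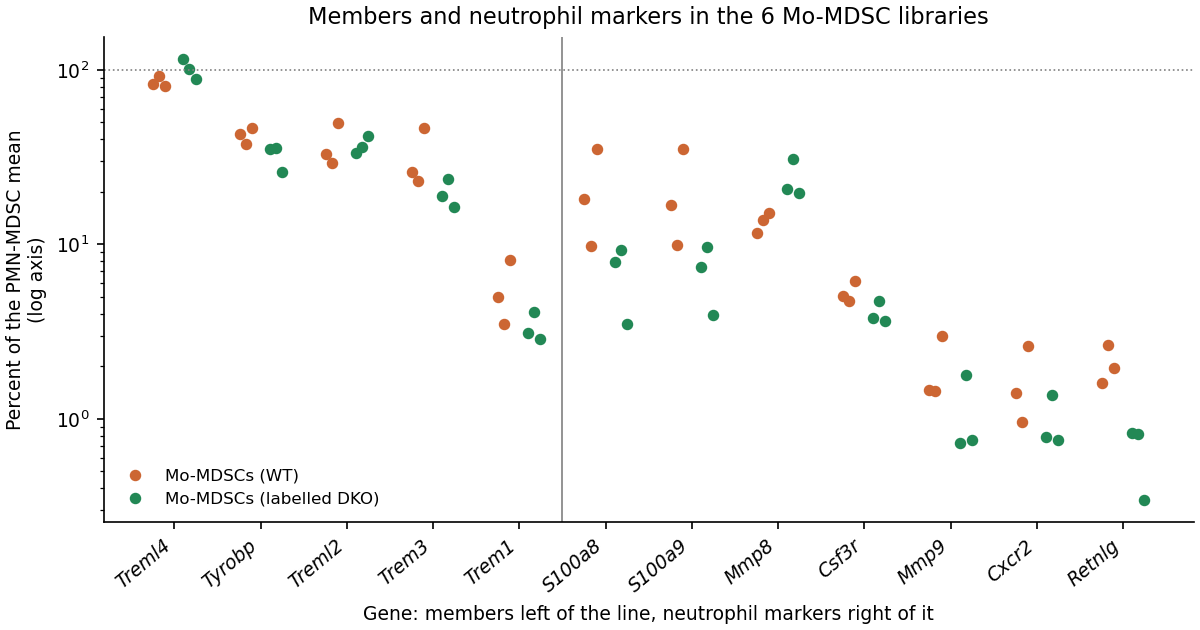
Level in each of the 6 Mo-MDSC libraries as a percentage of the PMN-MDSC mean (log axis) for 5 members, left of the line, and 7 neutrophil markers, right of it, with replicates 1 to 3 from left to right in each group. Trem1 lay between 2.85 and 8.18 percent and Cxcr2 between 0.754 and 2.61 percent, both highest in WT replicate 3.

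The partners of the receptors were counted by lists of ligands, sheddases, other receptors that use Tyrobp, other adaptors, downstream kinases and signalling genes, inhibitors and cytokines. Of 62 genes listed, 61 were analysed here (not Sirpb1c) and 53 were tested in each comparison. Cxcl2 was tested in the first comparison alone and Ccl2 in the second alone. Ccl2 was at a mean of 2.72 FPKM in DKO-labelled and 0.821 FPKM in WT Mo-MDSCs (log2 fold change 1.59, adjusted p = 0.157, limma). In WT Mo-MDSCs 29 were lower than in PMN-MDSCs and 4 higher, or 62.3% in all, beside the 39.1% of all genes, with a median log2 fold change of -0.34 beside 0.01 over all genes. The share was nearer to that of all genes under quantile normalization, with 24 of the 53 called (45.3%) beside 39.8% of all genes, and in replicates 2 and 3 alone 21 were called (39.6%) beside 25.6%. Between DKO-labelled and WT Mo-MDSCs 0 of 53 were called by limma and 14 had an unadjusted p below 0.05, or 26.4% beside 15.0% of all genes, with a median of -0.08 beside -0.02. The lowest adjusted p among them was that of Sirpb1a, a receptor that uses Tyrobp (log2 fold change -0.59, SE 0.08, adjusted p = 0.0505, limma). Its mean was 37.9 FPKM in DKO-labelled and 57.0 FPKM in WT libraries, with no overlap. The count of 0 became 1 with a pseudocount of 1, with all 9 samples in the fit, or with at least 1 FPKM required in every sample.

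Among 5 ligands, 4 were lower in the WT Mo-MDSC libraries and Apoe did not pass. Pglyrp1, a neutrophil granule protein that binds TREM1, fell from a mean of 916.6 to 227 FPKM (log2 fold change -2.12, SE 0.41, adjusted p = 0.00649, limma). Clu, an apolipoprotein ligand of TREM2, fell from 7.38 to 1.41 FPKM (log2 fold change -2.39, SE 0.31, adjusted p = 0.00107). The danger signals Hmgb1 and Cirbp changed by -0.32 and -0.31 on the log2 scale (adjusted p = 0.0299 and 0.0217). Apoe, a further TREM2 ligand, was at a mean of 2353 FPKM in PMN-MDSCs and 1706 FPKM in WT Mo-MDSCs (adjusted p = 0.0615). In the DKO-labelled libraries none of the 5 was called, and the largest difference was that of Pglyrp1, at 92.9 FPKM against 227 FPKM (log2 fold change -1.18, SE 0.40, adjusted p = 0.252). Of the neutrophil markers, S100a8, S100a9 and Retnlg were lower in every DKO-labelled library than in every WT library. Mmp8 was higher in every one, and Cxcr2, Mmp9 and Csf3r overlapped. The part of neutrophil RNA in the Pglyrp1 difference was not tested.

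Of 5 genes that shed or process the receptors, the protease Adam17 was higher in WT Mo-MDSCs (log2 fold change 0.32, adjusted p = 0.0277, limma) and Rhbdf2, the iRhom that carries ADAM17 to the cell surface, was lower (-0.75, adjusted p = 0.00216). Adam10 and Ncstn were among those that did not pass. Of 8 other Tyrobp receptors tested, 6 were lower in WT Mo-MDSCs, 0 were higher and 2 did not pass. Sirpb1b fell from 103 to 22.4 FPKM (log2 fold change -2.20, SE 0.09, adjusted p = 1.06e-05), Cd300lb from 153 to 40.2 FPKM (-1.92, SE 0.10, adjusted p = 2.51e-05), the lectin Clec5a from 33.8 to 14.6 FPKM (-1.27, SE 0.35, adjusted p = 0.0268) and Cd200r4 from 6.71 to 3.50 FPKM (-0.90, SE 0.16, adjusted p = 0.00487). Reads of the Sirpb1 and Pilrb copies may have been divided among near-identical genes, so their single values are uncertain. The other adaptors were lower too, Hcst (DAP10) from 122 to 33.0 FPKM (log2 fold change -1.84, adjusted p = 0.00172) and Fcer1g, the Fc receptor gamma chain, from 1312 to 952 FPKM (-0.46, adjusted p = 0.0428). In the DKO-labelled libraries Hcst was at 23.4 FPKM and Fcer1g at 731 FPKM, with adjusted p of 0.265 and 0.343.

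Of 22 kinases and signalling genes, 12 were lower and 2 higher in WT Mo-MDSCs. Syk, the kinase that Tyrobp recruits, fell from 248 to 167 FPKM (log2 fold change -0.57, SE 0.08, adjusted p = 0.00124, limma). The Src family kinase Fgr had the largest fall (-0.77, adjusted p = 9.47e-04), followed by the adaptors Grb2 (-0.66, adjusted p = 0.00222) and Bcl10 (-0.66, adjusted p = 0.00201). The linker Lat2 rose from 43.3 to 67.4 FPKM (0.64, adjusted p = 0.00236) and Prkcd, a protein kinase C, rose by a log2 fold change of 0.34 (adjusted p = 0.0474). Among 7 inhibitors, the phosphatase Ptpn6 (SHP-1; -0.64, adjusted p = 0.00240) and the docking protein Dok3 (-0.41, adjusted p = 0.0163) were lower and Dok1 was higher (0.33, adjusted p = 0.00583). Ptpn11, Inpp5d, Cbl and Ubash3b had log2 fold changes of 0.08, -0.17, 0.23 and 0.18 and did not pass. Of the 4 cytokines tested, Il1b fell from 1737 to 33.1 FPKM (log2 fold change -5.72, SE 0.16, adjusted p = 3.13e-06), and Tnf and Ccl3 did not pass. Cxcl2 was called too (-4.21, SE 0.61, adjusted p = 0.00192), but it entered the test only through PMN-MDSCs, at a mean of 5.07 FPKM, since no WT Mo-MDSC library exceeded 0.356 FPKM.

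**Figure D5:**
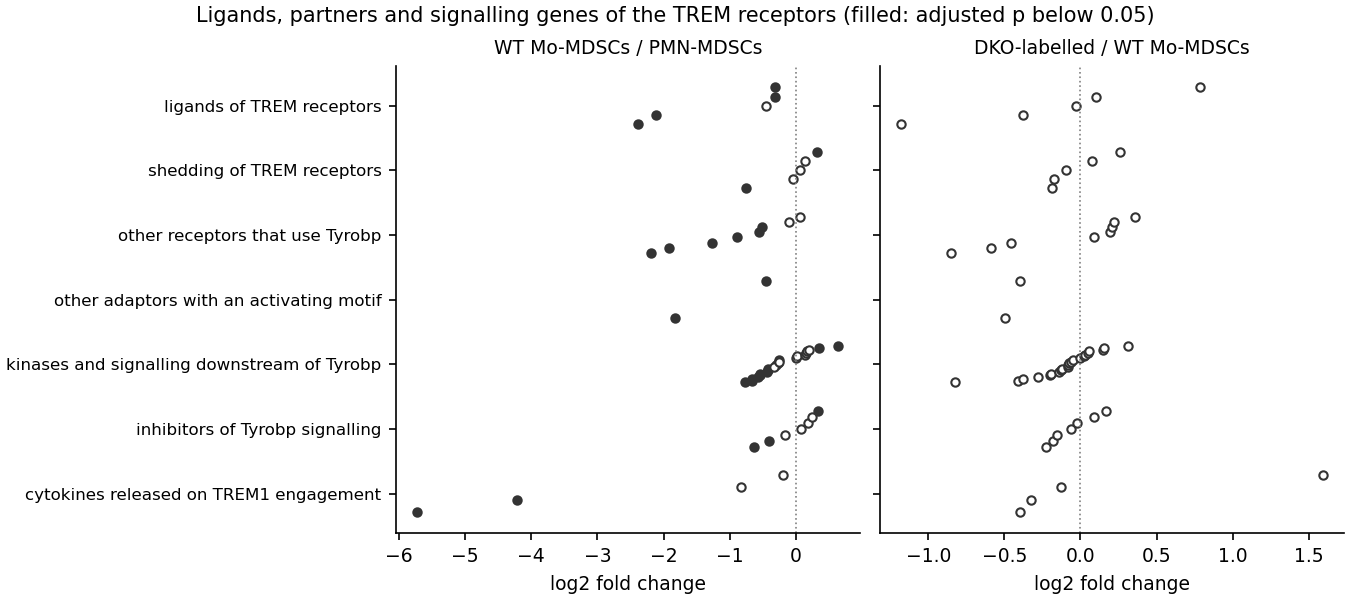
Log2 fold change of the genes tested in each list of TREM partners, 1 point per gene, for WT Mo-MDSCs over PMN-MDSCs (left) and DKO-labelled over WT Mo-MDSCs (right), with different scales. Filled points passed an adjusted p of 0.05, which were 33 of 53 genes on the left, with Il1b at -5.72 as the lowest, and none on the right.

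By the correlation of log2 values over the 9 libraries, the genes most like Trem1 among 11726 were the glucose transporter Slc2a3, Cxcr2 and Slfn4, each with r = 0.999. Those most like Trem3 were Chi3l1, Cpne2 and the lipoxygenase Alox5 (r = 0.997, 0.997 and 0.996), and those most like Tyrobp were Ostf1, Sdf4 and Pigx (0.998, 0.997 and 0.997). Trem2 was most like Atp8b2, the integrin Itgb7 and Depdc7 (0.998, 0.996 and 0.995). Treml2 was most like Igf2r, Map3k9 and Dcaf5 (0.988, 0.987 and 0.986) and Treml4 like Pla2g15, Mpzl1 and Hs1bp3 (0.976, 0.976 and 0.965). These values are a description, since the 9 libraries fall into 3 groups that fix most of each correlation. Between members, r was 0.98 for Trem1 with Trem3 and with Tyrobp, -0.95 for Trem1 with Trem2, and 0.18 for Trem1 with Treml4.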

How the data were processed

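The authors made stranded mRNA libraries from magnetically separated spleen cells, sequenced single ends of 75 bases, mapped them to mm10 with TopHat2 2.0.13, Bowtie2 2.2.3 and SAMtools 0.1.19 and deposited FPKM per gene symbol from Cuffnorm 2.2.1, per the labels and the methods. The annotation and the scaling in Cuffnorm are not given in the sources used here. Groups came from the sample labels, which do not say whether the replicates are separate animals, so p-values measure only the spread between samples.

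FPKM were used as deposited on the scale of log2(FPKM + 0.1). A gene was tested if 3 or more of the 6 libraries compared reached 1 FPKM, with limma 3.58.1 in R 4.3.3 (lmFit, eBayes with a trend, no covariates), with Benjamini-Hochberg adjustment over all genes tested. The median SE was 0.118 for Mo-MDSCs against PMN-MDSCs and 0.122 for DKO against WT. The script was tested on simulated data. Files hold no counts, and depth is known only relatively, from read steps of genes under 0.5 FPKM. Read numbers were recovered for 2 members, Trem2 and Treml1, and their ratios carry exact binomial 95% intervals. Low values were whole within 0.05 reads. Higher values were allowed a margin in proportion to their size, so the Trem2 reads in Mo-MDSCs are rounded and approximate. Single members were also given an exact two-sided permutation test.

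Labels number replicates 1 to 3 in each group. Deviations from the group means correlated between WT Mo-MDSC and PMN-MDSC samples of the same number by 0.294, 0.483 and 0.200. Between samples of unlike number they correlated by -0.429 to 0.0499, so a replicate block was fitted as well. Library numbers in the labels put replicate 1 in an earlier series. Promoters are from RefSeq (GRCm38.p6), where 4 of the 7 members matched. The members, gene lists and markers were chosen with earlier results of these data known. Named were all members, the inhibitors, ligands and other adaptors, and up to 4 called genes of each other list with the largest change, with Syk, Prkcd and the genes of these lists that did not pass named after their values were seen. Some genes of the lists are counted but not reported singly here. Alternatives were pseudocounts of 1 and 0.01, other filters, all 9 samples, no variance moderation, quantile normalization, the block, replicates 2 and 3 only, and leaving out each sample. Python 3.11.15, pandas 2.3.3, numpy 2.4.6 and scipy 1.17.1 were used.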

Additional observations from a re-analysis of the deposited data

How the results depend on the processing

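The adjusted call of each member was kept in 88 of 89 alternatives for WT Mo-MDSCs against PMN-MDSCs and in 90 of 90 for DKO-labelled against WT, where adjusted p ran from 0.174 to 0.978. Both call and direction were kept in 87 of 89 and 87 of 90. In the former, Treml4 passed with the replicate block (6 members and 6584 genes called) and reversed its sign, uncalled, under quantile normalization (0.21), and Trem2 could not be tested with at least 1 FPKM in all 6 samples. All genes called fell from 4492 to 2960 in replicates 2 and 3 only and lay between 3418 and 3974 when 1 library was left out. In the latter, the 29 genes called became 13 without a filter, 51 with all 9 samples, 0 without variance moderation (11.6% of genes and no member then had an unadjusted p below 0.05), 12 in replicates 2 and 3, 20 with the replicate block (0 members), and 4 (without DKO-labelled replicate 3) to 23 when 1 library was left out, with 8 without WT replicate 3, 10 and 11 without DKO-labelled replicates 2 and 1, and 13 without WT replicate 1. Treml2 there lay near 0 and ran from -0.13 to 0.25 over these omissions, negative in 3 of them (-0.13, -0.07 and -0.04). The cause of these changes was not tested. The members with an unadjusted p below 0.05 were 3 in the fit reported, and 0 to 3 in the alternatives. Same-numbered DKO-labelled and WT samples correlated by 0.348, 0.226 and -0.070, and unlike-numbered ones by -0.388 to 0.174. These values do not settle whether the numbers pair the DKO-labelled and WT samples. For WT Mo-MDSCs and PMN-MDSCs every same-numbered correlation was above every unlike-numbered one. Whether these numbers mark the same mice is not given in the sources used here. A call lost under the block is no weaker effect. With 3 libraries against 3, no exact permutation p can be below 0.1, and values of Trem2 in PMN-MDSCs and of Treml1 rest on 1 to 7 reads.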

Other observations

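The genes around the receptor cluster on chromosome 17 were compared in the same way. Of 21 protein-coding genes, the 10 on either side and B430306N03Rik within it, 20 were analysed here and 11 were tested. In WT Mo-MDSCs 5 were lower and 1 higher than in PMN-MDSCs by limma, where 39.1% of all genes were called, 20.6% as lower and 18.5% as higher. The uncharacterised A530064D06Rik, 9830107B12Rik and B430306N03Rik had log2 fold changes of -2.81, -2.74 and -1.25 (adjusted p = 1.29e-05, 0.00140 and 2.98e-04). Tfeb, a regulator of lysosomal genes, and Tomm6, a subunit of the mitochondrial import complex, changed by -0.84 and -0.31 (adjusted p = 3.46e-04 and 0.0221), and the lipid raft protein Rftn1 by 0.28 (adjusted p = 0.0191). Between DKO-labelled and WT Mo-MDSCs 0 of the 11 were called, and Tomm6 was the 1 gene of them with an unadjusted p below 0.05, beside 15.0% of all genes (log2 fold change -0.25, unadjusted p = 0.0175, adjusted p = 0.246).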
